A study of Mus musculus with 27 samples.

Results

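Single myofibers of the tibialis anterior from mice that lack *Smn1* in skeletal muscle and had received amniotic fluid stem (AFS) cells were compared with single Wt myofibers, to ask which genes and functions still differed from Wt 1 month after transplantation. The comparison took 15 of the 27 arrays of the series, chosen by the genotype label alone. They were 7 myofibers of AFS-treated *Smn1*ΔSkm mice (labelled Smn1deltaSKM+AFS), with myofibers 1 to 4 from mouse 1 and myofibers 5 to 7 from mouse 2, and 8 Wt myofibers, with myofibers 1 to 4 from mouse 1 and myofibers 5 to 8 from mouse 2. In the *Smn1*ΔSkm model Cre is driven by the human alpha-skeletal actin promoter, which is active in muscle fibers, and removes exon 7 of *Smn* from a pair of floxed alleles (HSA-Cre, Smn F7/F7). The AFS-treated mice carry the same deletion, so a difference from Wt holds the genotype and the treatment together. The donor cells were GFP+ and c-kit+ and were given through the tail vein. All mice were labelled male and 3 months old, whereas the methods place the injection at 3 months and the collection 1 month later. The methods also name C57BL/6 GFP+ mice as a source of single fibers, and the results text counts another number of AFS-treated fibers and mice than the labels do. The labels were followed here. The 12 myofibers of 3 untreated *Smn1*ΔSkm mice entered the model only to estimate the spread between mice, and their values stand beside the others for orientation.

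SMN, the protein encoded by *Smn1*, belongs to a complex that loads Sm proteins onto small nuclear RNAs, the RNA core of the spliceosome, and loss of the human gene causes spinal muscular atrophy. A myofiber is a single giant cell with many nuclei, whose contraction speed follows from the myosin heavy chain it makes and whose endurance follows from its mitochondria. The mouse tibialis anterior is mostly made of fast fibers that rely on *Myh4*, with a smaller part that uses *Myh1* or *Myh2* and burns more fat and sugar in mitochondria. Levels are given throughout as log2 of the scanner signal minus the 75th percentile of that array, so that 0 is a moderately bright probe, and a difference of 1 is a doubling of the signal. Levels of different probes cannot be set against each other.

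The array holds a pair of probes for *Smn1*, shown here because they gave different answers. Both sequences are written 5′ to 3′ in lower case with no part marked.
*Smn1*, probe at chr13:100898171-100898230 (mm9): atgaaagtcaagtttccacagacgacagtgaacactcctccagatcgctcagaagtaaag
*Smn1*, first 30 of the 60 bases of the probe at chr13:100907539-100907598 (mm9): aaggcagtctacccagtcgtgactgagcac
The probe at the higher coordinates is the one that the study lists for the knockout. That list holds genes that differed between untreated knockout and Wt myofibers. The choice of this probe therefore rests on the same Wt myofibers, and its call below is not independent of it. The exons that the probes match, and their place relative to exon 7, were not determined here.

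At the listed probe the Wt myofibers ran from 0.63 to 2.38 with a median of 1.97, and the AFS-treated myofibers from -1.04 to 1.32 with a median of 0.13. Of the 7 AFS-treated myofibers 5 lay below every Wt myofiber, and the other pair, both from mouse 2, overlapped with Wt myofiber 8 only. Averaged within mice, the level was 1.85 ± 0.015 in Wt (SD, n = 2 mice) and 0.24 ± 0.82 in AFS-treated mice (SD, n = 2 mice). The AFS-treated mice lay apart from each other, at -0.34 and 0.82. The difference from Wt was -1.61 (SE 0.398, limma, adjusted p = 0.0461). The untreated knockout lay at 0.16 ± 0.22 (SD, n = 3 mice), and AFS-treated minus untreated was 0.08 (SE 0.364), which was not called. The call at the listed probe was lost without Wt mouse 1 (adjusted p = 0.253), Wt mouse 2 (0.175), AFS-treated mouse 1 (0.234), untreated mouse 2 (0.0711) or untreated mouse 3 (0.0700), while *Smn1* was lower in the AFS-treated mice each time. It was also lost with other scalings, given in the closing part.

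The other probe pointed elsewhere. It lay at 2.40 ± 0.37 in Wt and 2.79 ± 0.30 in AFS-treated mice (SD, n = 2 mice each), a difference of 0.39 that did not pass the test (SE 0.382, limma, adjusted p = 0.521). Myofibers of the groups overlapped, from 1.59 to 2.91 in Wt and from 2.36 to 3.88 with AFS. All 15 myofibers thus had signal at this probe, and the difference was called only at the listed probe. The listed probe was the dimmer of the pair and was put in place of the brightest in a separate fit. The main counts of called genes below used the brighter probe, so *Smn1* is not among them.

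**Figure D1:**
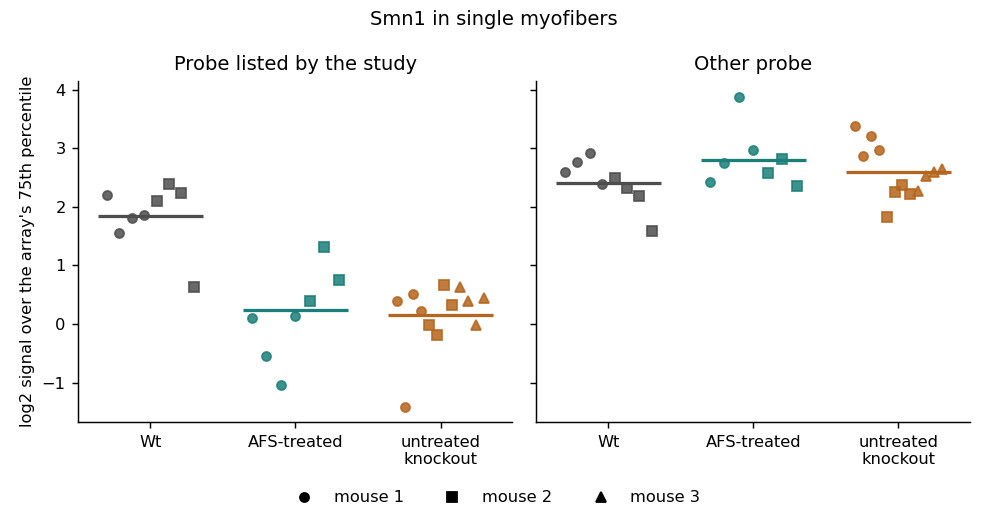
*Smn1* signal (y axis, log2 signal over the 75th percentile of the array) in each myofiber of Wt, AFS-treated and untreated knockout mice at both probes; symbols are mice and bars are means of mouse means. At the listed probe 5 of 7 AFS-treated myofibers sit below every Wt myofiber, and at the other probe the groups overlap.

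Between 23864 and 34001 probes had values on a Wt array and between 25868 and 30478 on an AFS-treated array, of 55681 probes in the design, and the number of arrays limits the precision. Wt myofiber 8 stood apart with 34001, since the next Wt array had 27318. Pearson's correlation across probes averaged 0.942 between Wt myofibers of a mouse, 0.949 between AFS-treated myofibers of a mouse and 0.884 between the groups. The 8 Wt arrays shared a slide of their own, and that slide had a scan day of its own. The AFS-treated arrays lay on 3 other slides scanned on 2 other days, with myofibers 2 and 3 on a day of their own among them. Slide, scan day and group therefore cannot be told apart, and this holds for every difference from Wt below.

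With mice as replicates, limma called 1384 of 15985 genes (8.66%) at an adjusted p under 0.05. Of these, 548 genes (3.43%) were higher and 836 genes (5.23%) lower in AFS-treated than in Wt mice. Across the 120 genes named by the rules, the differences ran in both directions up to about the same size, with *Zxdb* at 5.03 and *Zmynd17* at -4.31. The lowest adjusted p was 0.00485, for *Fbxo39*. Before adjustment 4864 genes passed 0.05. Gene groups are read against a median difference of -0.10 and a called share of 8.66% for all genes. The split into 60.4% lower calls depends on the scaling: when each array was instead centred on its median over probes measured on every array, it was 47.4% of 1088 calls and the median difference was 0.03.

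All 1384 called genes had both AFS-treated mice beyond both Wt mice in 1 direction, as had 68.3% of all genes. At the level of myofibers, all AFS-treated myofibers lay above all Wt myofibers for 957 genes (5.99%) and below them for 1250 genes (7.82%). Of the called genes 920 showed such a separation. With so few mice the count rested on each of them. No gene was called without Wt mouse 1, without Wt mouse 2 or without AFS-treated mouse 1, with 2516, 3255 and 2820 genes at an unadjusted p under 0.05. With AFS-treated mouse 2 left out, limma called 191 genes. The untreated mice, which only set the spread, moved it as well, to 4782, 672 and 527 without mouse 1, mouse 2 or mouse 3.

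The untreated knockout shares its Wt mice with this comparison, so the values of both against Wt are only placed side by side. The median difference of untreated mice from Wt was -0.18. Directly between AFS-treated and untreated knockout mice limma called 0 genes (0.0%), with a lowest adjusted p of 0.9997 and 543 genes at an unadjusted p under 0.05. Taking myofibers as replicates gave 18 genes. This comparison does not show that the groups act alike.

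Among called genes with a plain symbol and values on most arrays, 763 could be named, and the 15 largest differences in each direction are described first. In 19 of these 30 the myofibers of the groups did not overlap. Such a separation was seen for 920 of all 1384 called genes, and for 5.99% of all genes upward and 7.82% downward. These 30 were picked for the size of their difference, which favours separation. The rises included *Ankrd2*, *Csrp3*, *Ankrd1* and *Atf3*, and the falls included *Acvr2a*, *Golm1*, *Vamp7* and *Gadl1*.

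*Zxdb*, an X-linked zinc finger gene, ran from -1.99 to 2.82 in Wt with a median of 0.31, and from 3.02 to 7.02 with a median of 5.52 in AFS-treated myofibers. Its probe lies at chrX:91975443-91975502. The groups were separate in every myofiber, and the mouse means of -0.47 and 1.19 in Wt stood against 6.30 and 4.48, a difference of 5.03 (SE 0.685, limma, adjusted p = 0.0142). Untreated mice gave 5.08 over Wt.

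*Fbxo39*, an F-box gene with its probe at chr11:72132859-72132918, split the Wt myofibers. Wt myofibers 4, 6 and 8 had 5.32, 4.60 and 5.21, while the other 5 lay between -1.17 and 1.04. All AFS-treated myofibers lay in a narrow band from 6.03 to 6.75. The difference of mouse means was 4.28 (SE 0.289), and *Fbxo39* was the gene with the lowest adjusted p of the comparison (limma, 0.00485). Averaging within mice brought Wt mouse 1 to 1.87 and Wt mouse 2 to 2.06 and hid the spread between their myofibers.

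*Sap30*, a subunit of a histone deacetylase complex, ran from -0.68 to 1.63 in Wt and from 3.17 to 5.87 with AFS, a difference of 3.87 (SE 0.450). *Adamts1*, a secreted metalloprotease, ran from -1.09 to 1.94 in Wt and from 3.24 to 5.30 with AFS, a difference of 3.84 (SE 0.637). Neither gene had overlapping myofibers. *Foxp3*, a transcription factor best known from regulatory T cells, differed by 3.46 (SE 0.754, limma, adjusted p = 0.0352). Its AFS-treated myofibers ran from 2.41 to 7.47 and its Wt myofibers from -1.46 to 2.74, so the groups overlapped, and the AFS-treated mice lay apart at 5.01 and 2.66. Untreated mice gave 4.61 over Wt at *Foxp3*. The T cell markers *Cd3e* and *Cd4* were not called.

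**Figure D2:**
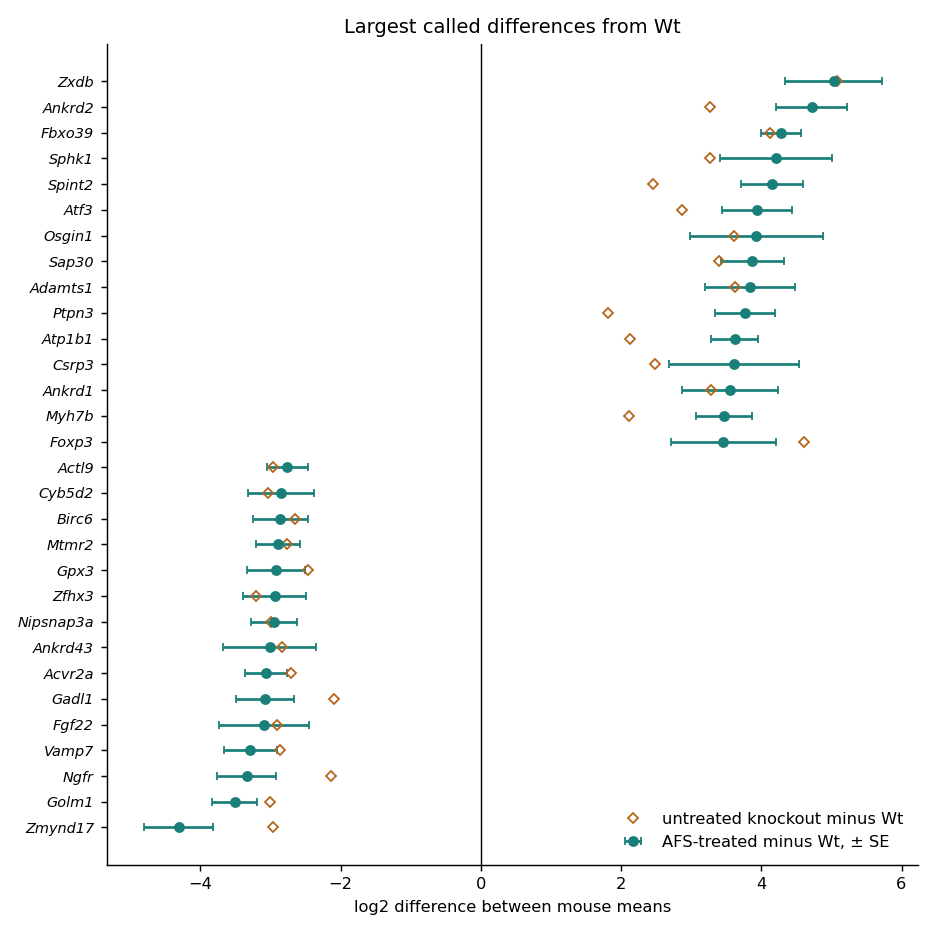
Log2 difference between mouse means (x axis) for the 15 largest called rises and 15 largest called falls in AFS-treated against Wt mice, with standard errors from limma, and untreated knockout minus Wt as open diamonds. The differences run from 5.03 for *Zxdb* to -4.31 for *Zmynd17*, and all 30 diamonds lie on the same side of 0 as the filled points; both contrasts share the Wt mice.

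Muscle identity genes were called about as often as genes at large. Of 12 such genes, all of them tested, limma called only *Mb*, a share of 8.33% against 8.66% of all genes. Their median difference was -0.27, and 10 of the 12 lay below Wt. *Pvalb*, the calcium buffer of fast fibers, differed by -0.21, *Tnnt3* by -0.03 and *Atp2a1*, the fast calcium pump, by -0.19. *Ckm*, the muscle creatine kinase, was at -1.16 (SE 0.432, limma, adjusted p = 0.119), with all AFS-treated myofibers below the 7 Wt ones with a value. *Mylpf*, a fast myosin light chain, was at -1.65 (limma, adjusted p = 0.0530). The fast myosin *Myh4* was high everywhere, from 7.05 to 7.94 in Wt and from 6.01 to 7.49 with AFS, a difference of -0.47 (SE 0.262, limma, adjusted p = 0.264). None of 5 tested troponins was called.

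*Myh1*, which encodes the IIX myosin, reached 7.81, 3.65, 7.40, 3.28, 6.83, -0.27 and 7.75 in AFS-treated myofibers 1 to 7. The 8 Wt myofibers lay between -0.66 and 3.69. AFS-treated myofibers 1, 3, 5 and 7 thus lay far above every Wt myofiber and myofibers 2, 4 and 6 within the Wt range. Both AFS-treated mice held myofibers of either kind, so the mouse means were 5.54 and 4.77 against 2.41 and 1.00 in Wt, and the difference was 3.45 (SE 0.552, limma, adjusted p = 0.0180). The *Myh1* difference of the untreated mice was 2.20.

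*Myh7b*, an ancient slow-type myosin gene, gave 3.48, 0.16, 3.70, -0.84, 2.10, -1.27 and 3.57 in AFS-treated myofibers 1 to 7. The 6 Wt myofibers with a value ran from -2.65 to -1.48, so no myofiber overlapped, and the highest levels again belonged to myofibers 1, 3, 5 and 7. The difference was 3.47 (SE 0.403, limma, adjusted p = 0.0113). *Myh7*, the slow myosin itself, did not follow, with a difference of 0.05. *Myh2* had values on 0 of 8 Wt and 2 of 7 AFS-treated arrays, on myofibers 1 and 7. *Myh3* had a value on 1 AFS-treated array and *Myh13* on none. *Myh8* was read at the brightest of its 4 probes, and signal shared with other myosins was not tested. At that probe it was bright everywhere, from 7.74 to 8.79 in Wt and from 7.34 to 7.98 with AFS. It differed by -0.61 (SE 0.278, limma, adjusted p = 0.178), against -1.20 in untreated mice. *Myh6* was detected on 3 of 8 Wt arrays and on all 7 AFS-treated arrays, between -1.06 and 0.36. Of the 9 myosin heavy chain genes 5 were tested and 2 called, and the median of the 5 changed sign with the scaling, from -0.04 to 0.17.

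*Mb*, which encodes myoglobin, the oxygen store of oxidative fibers, was at 8.50, 4.16, 7.46, 4.93, 7.47, 4.98 and 8.00 in AFS-treated myofibers 1 to 7. Wt myofibers ran from 3.18 to 5.49, and the same 4 AFS-treated myofibers as for *Myh1* lay above all of them. The difference was 2.33 (SE 0.428, limma, adjusted p = 0.0244), compared with 0.95 in untreated mice.

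Among 41 tested genes of the thin filament and Z-disc, 5 were called higher and none lower, or 12.2% against 8.66% of all genes. The median of the group was -0.20 and changed sign with the scaling. The 5 are Z-disc and stretch-responsive genes rather than filament subunits. *Ankrd2*, a stretch-induced ankyrin repeat gene with its probe at chr19:42118566-42118625, ran from -1.18 to 1.39 in the 6 Wt myofibers with a value. AFS-treated myofibers 1 to 7 had 7.02, 2.82, 5.98, 2.73, 5.52, 1.12 and 5.96. All but myofiber 6 exceeded Wt, and the difference was 4.72 (SE 0.506, limma, adjusted p = 0.0113).

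*Csrp3*, the muscle LIM protein at the Z-disc, had 5.27, -0.52, 4.33, -0.02, 2.75, -2.56 and 3.08 in AFS-treated myofibers 1 to 7. Of the 7 Wt myofibers with a value, 6 lay between -2.79 and -1.73 and myofiber 8 at 0.56. The 4 highest myofibers were once more 1, 3, 5 and 7, and the difference of 3.61 had a wide error (SE 0.922, limma, adjusted p = 0.0490). *Fhl1*, another LIM gene of muscle, differed by 2.95 (SE 0.506, limma, adjusted p = 0.0214), and *Actn2*, the alpha-actinin that all fiber types use, by 2.34 (SE 0.335, limma, adjusted p = 0.0152). In both, Wt myofibers 4 and 8 reached AFS-treated levels, with 2.47 and 2.25 for *Fhl1* and 3.81 and 4.19 for *Actn2*.

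*Ankrd1*, a cardiac ankyrin repeat gene that responds to load, followed another order. Its AFS-treated myofibers 1 to 7 had 6.06, 6.46, 4.79, 5.97, 4.82, 2.20 and 4.61, and Wt myofibers ran from -0.61 to 2.85. Mouse 1 was higher than mouse 2, at 5.82 against 3.88, and the difference from Wt was 3.56 (SE 0.684, limma, adjusted p = 0.0274). Of the thin filament genes, *Actc1*, the cardiac actin, had the most negative difference, -4.42, with an error too wide for a call (SE 1.52, limma, adjusted p = 0.0989). The skeletal actin *Acta1* stood at -0.33 and nebulin, *Neb*, at -0.20.

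*Atp1b1*, a subunit of the sodium-potassium pump, was the only call upward among 31 tested genes of excitation-contraction coupling and calcium handling. Its AFS-treated myofibers ran from 2.18 to 4.21. Of the Wt myofibers 6 lay between -1.95 and -0.44, and myofibers 4 and 8 at 2.41 and 3.46, so the groups overlapped through these alone. The difference was 3.62 (SE 0.339, limma, adjusted p = 0.0113). *Spint2*, a membrane-bound protease inhibitor, was at 5.45, 5.10, 4.52 and 5.52 in AFS-treated myofibers 1, 3, 5 and 7, at 1.73 and 0.66 in myofibers 4 and 6, and had no value in myofiber 2. It differed by 4.15 (SE 0.446), with no overlap with the Wt range of -0.95 to 0.34. *Ptpn3*, a tyrosine phosphatase, differed by 3.77 (SE 0.431), from a Wt range of -2.34 to 1.40 to an AFS range of 1.04 to 5.54.

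**Figure D3:**
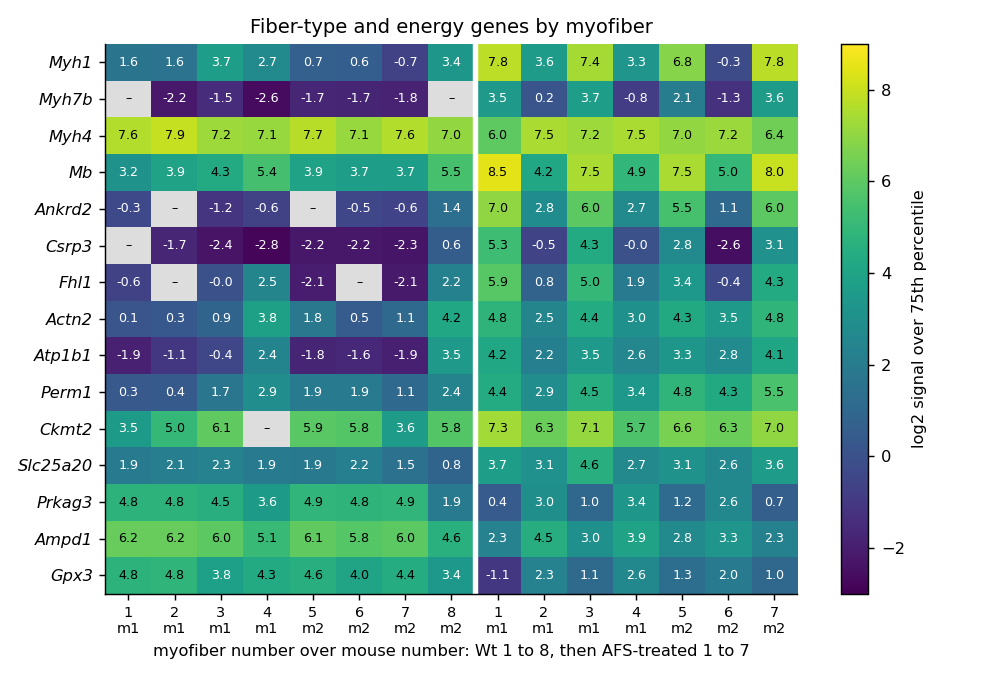
Level of fiber-type and energy genes (colour and numbers, log2 signal over the 75th percentile of the array) in Wt myofibers 1 to 8 and AFS-treated myofibers 1 to 7, with the mouse under each number and grey where no value was measured. *Myh1* reads between 6.83 and 7.81 in AFS-treated myofibers 1, 3, 5 and 7, against at most 3.69 in Wt, and *Mb*, *Ankrd2* and *Csrp3* are highest in the same 4 myofibers.

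Regulators of mitochondrial biogenesis were called in both directions. *Perm1* (*2310042D19Rik* on the array), a muscle regulator of mitochondrial gene expression, ran from 0.33 to 2.90 in Wt and from 2.88 to 5.54 with AFS. The difference was 2.76 (SE 0.488, limma, adjusted p = 0.0225), against 1.03 in untreated mice. *Ppara*, a nuclear receptor that drives fatty acid oxidation, was higher by 1.67 (SE 0.392, limma, adjusted p = 0.0414), while *Rxra*, its partner in binding DNA, was lower by -1.34 (SE 0.278). A second *Ppara* probe gave 0.93 and was not called (limma, adjusted p = 0.114). *Perm1*, *Ppara* and *Rxra* were the 3 called of 23 tested regulators of mitochondrial biogenesis.

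Of 21 tested genes of adenylate and creatine phosphate metabolism 5 were called, a share of 23.8% against 8.66% of all genes. *Ckmt2*, the creatine kinase of mitochondria, was higher by 1.54 (SE 0.348), with AFS-treated myofibers from 5.65 to 7.32 against 3.52 to 6.07 in Wt. *Prkag2*, a regulatory subunit of the energy sensor AMPK, was higher by 1.52 (SE 0.274). *Prkag3*, the AMPK subunit typical of fast glycolytic fibers, ran the other way. AFS-treated myofibers 1 to 7 had 0.43, 2.97, 0.99, 3.36, 1.20, 2.61 and 0.65, with the lowest levels in myofibers 1, 3, 5 and 7, and Wt ran from 1.90 to 4.90. The difference was -2.55 (SE 0.329, limma, adjusted p = 0.0133).

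*Ampd1*, the AMP deaminase of muscle, ran from 4.61 to 6.21 in Wt and from 2.27 to 4.48 with AFS, without overlap, a difference of -2.65 (SE 0.343, limma, adjusted p = 0.0133). Its lowest AFS-treated levels, 2.27 to 3.00, were again those of myofibers 1, 3, 5 and 7. *Gamt*, which makes creatine, was lower by -1.48 (SE 0.299), and a second probe of *Gamt* gave -1.97. In untreated mice *Ampd1* differed from Wt by -3.20 and *Prkag3* by -2.60.

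Sugar and glycogen genes showed few calls. Of 20 tested genes of glycolysis only *Pfkfb3*, which makes the activator of phosphofructokinase, was called, at -2.20 (SE 0.470), with values on 5 of 7 AFS-treated arrays; a second probe with values on all arrays gave -2.45 (limma, adjusted p = 0.0226). None of 19 genes of glycogen metabolism was called, although the AFS-treated myofibers lay below all Wt ones for *Gyg* (-1.38), *Pygm* (-1.09) and *Ppp1r3a* (-1.37), as they did for 7.82% of all genes. The medians were -0.25 for glycolysis and -0.35 for glycogen, with -0.80 and -1.24 in untreated mice. *Gsk3a*, a kinase that restrains glycogen synthase, was the call among 20 insulin signalling genes, at -1.89 (SE 0.281), from a Wt range of 3.91 to 4.51 to an AFS range of 1.79 to 2.65.

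Fatty acid oxidation had a median of 0.18 over 27 tested genes, 17 of them above Wt, whereas all genes had -0.10 and untreated mice gave -0.58 for this group. A single gene was called, *Slc25a20*, the carrier that takes acylcarnitines into mitochondria, which was higher by 1.48 (SE 0.348, limma, adjusted p = 0.0414). Its Wt myofibers ran from 0.85 to 2.32 and its AFS-treated ones from 2.62 to 4.56, without overlap. *Acadvl*, the long-chain dehydrogenase, had 1.06 and *Cpt1b*, the entry enzyme, -0.53, and neither passed the test.

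Lipid droplet and lipolysis genes had a median of 0.29 over 25 tested. *Cidea*, a lipid droplet protein of brown fat, was higher by 2.46 (SE 0.626, limma, adjusted p = 0.0489), with Wt from -2.25 to 0.16 and AFS from 0.91 to 4.19. *Plin3*, a coat protein of droplets, was lower by -1.86 (SE 0.443), against -3.34 in untreated mice. *Lpl*, the lipoprotein lipase, had 1.89 and missed the threshold (limma, adjusted p = 0.0526).

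Of 890 tested MitoCarta genes, an inventory of mitochondrial proteins, limma called 50, or 5.62%, which is below the 8.66% of all genes. They were 14 higher and 36 lower. The median difference was -0.21, at -0.26 in AFS-treated mouse 1 and -0.18 in mouse 2, and 569 genes lay below Wt. For the same genes untreated mice had a median of -0.59 against Wt, and AFS-treated minus untreated was 0.36. The count rested on single mice in the same way as that over all genes: no MitoCarta gene was called without either Wt mouse or without AFS-treated mouse 1, and 4 with AFS-treated mouse 2 left out, against 195, 22 and 18 without untreated mouse 1, 2 or 3. It was 28 without AFS-treated myofibers 2 and 3, the pair scanned on another day.

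The respiratory chain itself was little called. None of 48 tested nuclear genes of complexes II to V passed, and their median was -0.04, with a sign that changed with the scaling, against -0.71 in untreated mice. Examples are *Sdha* at 1.02, *Cox4i1* at 0.43, *Atp5b* at -0.37 and *Cox6b1* at -0.75. Of 55 genes of complex I, 2 were lower, *Ndufaf2*, an assembly factor, by -1.24 (SE 0.300) and the subunit *Ndufs5* by -1.21 (SE 0.297). *Ndufaf2* ran from 0.66 to 1.89 in Wt and from -0.88 to 0.63 with AFS. The 6 tested mitochondrially encoded genes had differences between -0.53 for *ND3* and 0.34 for *ND5*, and none was called.

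*Zmynd17*, now named *Mss51*, a muscle protein grouped with cytochrome oxidase assembly factors by homology, had the largest called fall among genes with a plain symbol, with its probe at chr14:21302415-21302782. Wt myofibers 1 to 7 lay between 4.49 and 5.81 and Wt myofiber 8 at 1.48. AFS-treated myofibers 2 to 7 had 0.90, -1.56, 1.76, 2.69, 0.27 and -2.09, and myofiber 1 had no value. The groups overlapped only through Wt myofiber 8, and the difference was -4.31 (SE 0.498, limma, adjusted p = 0.0113), compared with -2.96 in untreated mice. No other cytochrome oxidase assembly gene of 24 tested was called.

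Genes for making and importing mitochondrial proteins were called less often than the 8.66% of all genes. The shares were 6.49% for mitochondrial ribosomal proteins, 5.13% for mitochondrial DNA and translation genes and 8.57% for import. Called ones were lower with 1 exception, and 60.4% of all calls were lower. Of 77 tested mitochondrial ribosomal protein genes 5 were lower and none higher, and the median was -0.29. *Mrpl38* fell from a Wt range of 1.42 to 2.77 to an AFS range of -0.74 to 0.61, a difference of -1.95 (SE 0.356). *Mrpl35* differed by -1.67, *Mrps2* by -1.35 and *Mrpl40* by -1.28, and the fifth, *Mrpl36*, by -1.23. Second probes of *Mrps2* at -0.87 (limma, adjusted p = 0.186) and of *Mrpl40* at -1.04 (limma, adjusted p = 0.0651) were not called. Of 39 genes of mitochondrial DNA upkeep, tRNA charging and translation, *Rars2*, the mitochondrial arginyl-tRNA synthetase, was lower by -1.86 and *Fastkd5*, an RNA-processing factor, by -1.11, each with values on 5 of 7 AFS-treated arrays. In the import machinery *Tomm6* was lower by -1.41 and *Timm10b* (*Fxc1* on the array) by -1.29, although a second *Fxc1* probe gave -0.38 and was not called (limma, adjusted p = 0.562), while the matrix chaperone *Hspa9* was higher by 1.56 (SE 0.372).

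Genes of mitochondrial shape went both ways, with 5 of 34 called, or 14.7% against 8.66% of all genes. *Myo19*, a motor that binds mitochondria, was higher by 2.28 (SE 0.556) and *Mief2* (*Smcr7* on the array), which recruits the fission motor, by 1.31 (SE 0.293). *Mief2* ran from -1.34 to 0.24 in Wt and from 0.37 to 1.30 with AFS, without overlap, and untreated mice gave 0.08 over Wt. *Yme1l1*, an inner membrane protease, was lower by -2.31 (SE 0.341), *Letmd1* by -2.13 (SE 0.363) and *Gdap1*, a fission factor of the outer membrane, by -2.54 (SE 0.651).

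Other mitochondrial enzymes were called one by one. *Pdp1*, the phosphatase that switches pyruvate dehydrogenase on, ran from 3.44 to 4.38 in Wt and from 0.13 to 2.44 with AFS, a difference of -2.37 (SE 0.379). Further *Pdp1* probes gave 0.53 (limma, adjusted p = 0.452) and -0.90 (limma, adjusted p = 0.172), so the probes of this gene disagreed. *Pcx*, pyruvate carboxylase, was lower by -1.76 (SE 0.327). In branched-chain amino acid breakdown *Acad8* was higher by 2.09 (SE 0.474) and *Mccc2* lower by -1.85 (SE 0.315). *Nipsnap3a* was lower by -2.95 (SE 0.329), with AFS-treated myofibers from -3.25 to -2.12 and Wt ones from 0.69 to 1.52 except myofiber 8 at -3.15. *Cbr2*, a carbonyl reductase, was lower by -3.24 (SE 0.570) with values on 4 of 7 AFS-treated arrays.

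Immediate early genes are switched on by cells within minutes of a stimulus. Of 32 tested, 6 were called higher and 1 lower, a share of 21.9% against 8.66% of all genes. The median of the group was 1.54, against -0.10 for all genes and 0.46 for untreated mice, and 27 of the 32 lay above Wt. For 11 of them all AFS-treated myofibers lay above all Wt ones, and for none below. Over all genes these shares were 5.99% and 7.82%. The median stayed between 1.44 and 1.67 over 5 scalings.

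*Atf3*, a transcription factor of the stress response, had 5.91, 5.98, 5.45, 5.16, 5.40, 5.39 and 5.18 in AFS-treated myofibers 1 to 7. The Wt myofibers ran from 0.41 to 3.33. Every AFS-treated myofiber lay above every Wt one, with little spread between them, and the difference was 3.94 (SE 0.501, limma, adjusted p = 0.0133). Its probe lies at chr1:192994547-192994606, and untreated mice gave 2.87.

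*Egr1*, a zinc finger factor of the same class, ran from 1.90 to 4.91 in Wt and from 5.70 to 6.82 with AFS, a difference of 3.08 (SE 0.557, limma, adjusted p = 0.0237). *Mafk*, a small Maf partner of stress-responsive factors, ran from -0.92 to 0.14 in Wt and from 1.44 to 4.16 with AFS, a difference of 3.42 (SE 0.404, limma, adjusted p = 0.0117). *Arc*, an activity-regulated gene, had 4.08, 3.60, 3.85 and 3.63 in the myofibers of AFS-treated mouse 1 and 2.53, 0.67 and 1.17 in those of mouse 2, all above the Wt maximum of 0.50. Its difference was 3.31 (SE 0.716, limma, adjusted p = 0.0349), against 4.33 in untreated mice. *Klf6* (2.65) and *Fosl2* (2.05) were also called with no overlap. *Dusp6*, a phosphatase that dampens ERK, was the call in the other direction at -1.60 (SE 0.392). *Fos* itself had 1.54 and *Jun* -0.43, and neither was called.

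Antioxidant enzymes and metallothioneins had 2 called higher and 2 lower of 34 tested, or 11.8% against 8.66% of all genes. The median of the group changed sign with the scaling. *Hmox1*, heme oxygenase, had 5.65, 5.67, 5.43 and 6.39 in AFS-treated mouse 1 and 3.09, 2.79 and 3.81 in mouse 2, against -0.58 to 2.60 in Wt. All its AFS-treated myofibers lay above Wt, and the difference was 3.09 (SE 0.704, limma, adjusted p = 0.0391). *Mt2*, a metallothionein, ran from 4.87 to 8.22 with AFS and from 2.01 to 5.73 in Wt, a difference of 3.14 (SE 0.765, limma, adjusted p = 0.0445). Outside that list, 2 of the 15 largest rises follow. *Osgin1*, an oxidative stress gene, gave 6.42, 5.95, 4.98 and 6.68 in mouse 1 and 5.12, 1.60 and 3.90 in mouse 2, and its difference was 3.93 (SE 0.949, limma, adjusted p = 0.0438). *Sphk1*, the sphingosine kinase, had the same order, with 4.44, 3.58, 3.73 and 4.34 in mouse 1 and 3.81, 0.12 and 2.27 in mouse 2 against -1.82 to 0.12 in Wt. It differed by 4.21 (SE 0.796). For these genes the myofibers of mouse 1 were mostly the higher ones, and myofiber 6 of mouse 2 was the lowest for *Mt2*, *Hmox1*, *Osgin1* and *Sphk1*.

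*Gpx3*, a secreted glutathione peroxidase, was among the largest falls. It ran from 3.41 to 4.83 in Wt, and AFS-treated myofibers 1 to 7 had -1.06, 2.30, 1.14, 2.58, 1.34, 2.00 and 1.00. The difference was -2.92 (SE 0.418, limma, adjusted p = 0.0151), without overlap and with the lowest levels in myofibers 1, 3, 5 and 7. *Gstm1*, a glutathione transferase, was lower by -1.77 (SE 0.360). *Atf3* was the sole call among 22 genes of the integrated stress response, and none of 26 tested p53 targets was called.

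**Figure D4:**
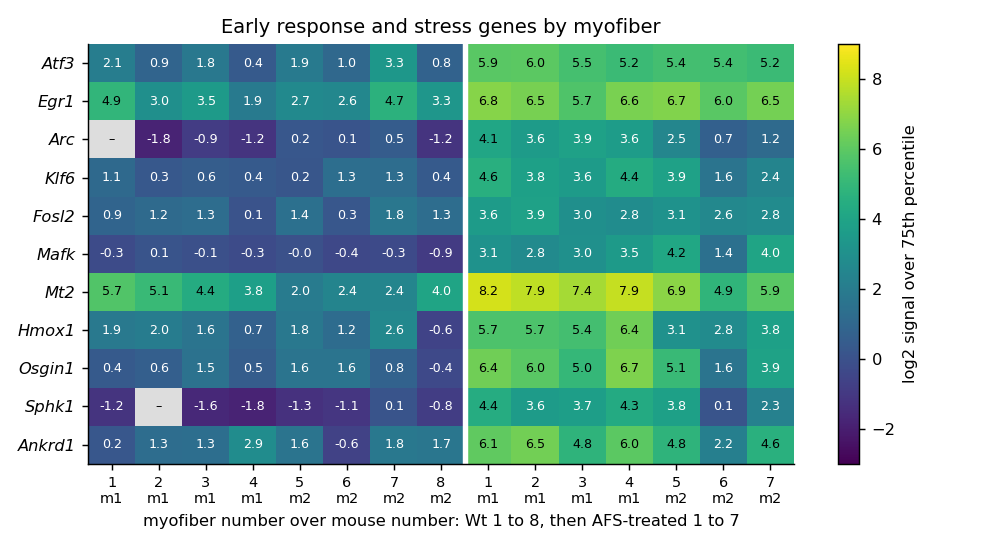
Level of early response and stress genes (colour and numbers, log2 signal over the 75th percentile of the array) in Wt myofibers 1 to 8 and AFS-treated myofibers 1 to 7, with the mouse under each number. *Atf3* reads between 5.16 and 5.98 in all 7 AFS-treated myofibers and at most 3.33 in Wt, while *Hmox1* and *Arc* are higher in AFS-treated mouse 1 than in mouse 2.

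Of 27 tested atrophy and growth control genes 6 were called, or 22.2% against 8.66% of all genes. The median was -0.74, and -0.75 in untreated mice. *Acvr2a*, a receptor for myostatin and activins with its probe at chr2:48758429-48758488, had -1.17, -2.03, -2.64, -0.72, -1.27, -0.72 and -1.53 in AFS-treated myofibers 1 to 7. Wt myofibers ran from 0.89 to 2.45, so the groups lay apart in every myofiber. The difference was -3.06 (SE 0.299, limma, adjusted p = 0.0113). A second *Acvr2a* probe had values on 8 Wt and 3 AFS-treated arrays and was not tested.

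*Gdf11*, a ligand close to myostatin, was lower by -1.82 (SE 0.343) and the arrestin *Arrdc2* by -2.19 (SE 0.408). *Ddit4*, which restrains mTOR, was lower by -2.0 (SE 0.463). *Fbxo32*, the atrophy ubiquitin ligase atrogin-1, ran from 2.07 to 4.53 in Wt and from 1.08 to 2.80 with AFS, a difference of -1.77 (SE 0.358, limma, adjusted p = 0.0303). Wt myofiber 8 was the one inside the AFS range. *Foxo4*, a FoxO factor, was the single rise, at 1.12 (SE 0.270).

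The cullin-RING ligases, of which *Fbxo32* is a part, had 5 of 25 genes called, all lower. Their median was -0.57 and stayed negative over 5 scalings, from -0.57 to -0.10. *Cul5*, a cullin scaffold, had -0.68, -2.13, -2.25, -1.37, -0.55, -0.69 and -0.79 in AFS-treated myofibers 1 to 7, and Wt ran from 0.93 to 2.73. Its difference was -2.68 (SE 0.385, limma, adjusted p = 0.0152), and untreated mice gave -3.17. *Kbtbd12* was lower by -1.94, *Fbxw7*, a substrate receptor, by -1.24 and Elob (*Tceb2* on the array), an adaptor, by -1.10. Second probes gave -0.84 for *Kbtbd12* (limma, adjusted p = 0.103) and -0.85 for *Fbxw7* (limma, adjusted p = 0.313) and were not called.

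Proteasome genes had 5 called of 44, all lower, a share of 11.4% against 8.66% of all genes, and 40 of the 44 lay below Wt. *Psmd8*, a lid subunit, ran from 4.54 to 5.87 in Wt and from 1.85 to 4.40 with AFS, a difference of -2.09 (SE 0.470). *Psmd1*, a base subunit, differed by -1.42 (SE 0.283), and *Psma7*, of the core particle, by -1.25 (SE 0.278). *Psmg2*, an assembly chaperone, differed by -1.27 and *Adrm1*, a ubiquitin receptor, by -1.21. The median was -0.42, and -0.52 in untreated mice.

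Of 36 core autophagosome genes 4 were called, a share of 11.1% against 8.66% of all genes, *Vmp1* (*Tmem49* on the array) at -2.0 (SE 0.364), *Atg14* at -1.67 (SE 0.283), *Atg13* at -1.64 (SE 0.340) and *Atg3* at -1.34 (SE 0.303). For *Vmp1* the Wt range of 2.73 to 3.77 and the AFS range of 0.70 to 1.60 did not touch. Among 51 lysosome genes only *Atp6v1c1*, a proton pump subunit, was called, at -1.46, a share of 1.96%.

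Among 52 heat shock proteins and co-chaperones, *Dnajb4* was higher by 1.71 (SE 0.356) and *Hspa9*, counted above, was also called. *Fkbp5* was lower by -1.81 and *Ptges3*, an HSP90 co-chaperone, by -2.35 (SE 0.297). Other *Ptges3* probes gave 1.24 (limma, adjusted p = 0.150), -1.75 and -1.95, so the direction held at 3 of 4 probes. Of 83 tested cytosolic ribosomal protein genes 72 lay below Wt, but only *Rpl36al* was called, at -1.16. Their median was -0.40, at -0.16 in AFS-treated mouse 1 and -0.58 in mouse 2.

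Of 40 tested genes of the SMN complex, Sm and LSm proteins 4 were called, with a median of -0.32. *Gemin6*, a member of the SMN complex, was higher by 1.82 (SE 0.408), from a Wt range of 1.87 to 5.22 to an AFS range of 4.10 to 6.76. *Prmt5*, which methylates Sm proteins, was lower by -1.41 (SE 0.293), with 2.04 to 2.97 in Wt and 0.89 to 1.21 with AFS. *Lsm14b* was lower by -1.78 and *Lsm12* by -1.16.

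Splicing regulators of the SR and hnRNP families had 5 called lower and 1 higher of 54, or 11.1% against 8.66% of all genes. *Taf15*, an RNA-binding protein, ran from 0.71 to 2.11 in Wt and from -1.76 to -0.43 with AFS, a difference of -2.41 (SE 0.322, limma, adjusted p = 0.0136). *Mbnl1*, the muscleblind factor that sets adult muscle splicing, ran from 3.47 to 5.13 in Wt and from 1.5 to 3.26 with AFS, a difference of -1.90 (SE 0.412, limma, adjusted p = 0.0349). *Rbm24*, a muscle splicing factor, was lower by -1.65 (SE 0.413) and the kinase *Clk3* by -1.53. *Hnrnpa1* was lower by -2.04 (SE 0.446), while its second probe gave 0.79 (limma, adjusted p = 0.609). *Hnrnph2* was the rise, at 1.47, with values on 5 of 7 AFS-treated arrays.

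Replication-dependent histone genes had 4 called lower of 31, or 12.9% against 8.66% of all genes. Their median was -0.62, against -0.39 in untreated mice. *H4c3* (*Hist1h4c* on the array) ran from 3.17 to 5.46 in Wt and from 1.70 to 3.52 with AFS, a difference of -1.97 (SE 0.450). *H1f4* (*Hist1h1e*) differed by -1.89, *H3c14* (*Hist2h3c1*) by -1.63 and *H2bc4* (*Hist1h2bc*) by -1.51. Histone genes are near-identical copies, so signal may be shared between them.

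In excitation-contraction coupling, *Camk2a*, a calcium-dependent kinase, ran from 4.67 to 6.07 in Wt and from 2.88 to 4.12 with AFS, a difference of -2.06 (SE 0.328, limma, adjusted p = 0.0178). A second *Camk2a* probe gave -0.81 and was not called (limma, adjusted p = 0.337). *Stim1*, the calcium sensor of the sarcoplasmic reticulum, was lower by -1.59 (SE 0.313), and a second probe gave -1.52. *Cacnb1*, a subunit of the voltage sensor, was lower by -1.13. Of 31 genes 4 were called, or 12.9% against 8.66% of all genes. Below Wt lay 27 of the 31, and the median was -0.54, against -1.11 in untreated mice.

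In the dystrophin-glycoprotein complex *Dag1*, which encodes dystroglycan, ran from 4.82 to 5.87 in Wt and from 2.74 to 3.85 with AFS, a difference of -1.89 (SE 0.287, limma, adjusted p = 0.0163). Among the enzymes that add its sugars, *Pomgnt1* was lower by -1.64 (SE 0.320) and *Large* by -1.20 (SE 0.298). These were the 3 called of 21 tested genes of the complex, or 14.3% against 8.66% of all genes. *Mef2d*, a muscle transcription factor, was lower by -1.52 (SE 0.316) as the one call among 14 myogenic factors, and none of 13 tested neuromuscular junction genes passed. A second *Mef2d* probe gave -1.07 and was not called (limma, adjusted p = 0.0519). Of 17 clock genes *Hlf* was lower, by -2.09.

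The remaining large falls were as follows. *Golm1*, a Golgi membrane protein, ran from 1.38 to 3.19 in Wt and from -1.83 to -0.14 with AFS, a difference of -3.51 (SE 0.319). *Vamp7*, a vesicle SNARE, ran from 2.27 to 4.23 and from -1.96 to 0.31, a difference of -3.29 (SE 0.377). *Ngfr*, the p75 neurotrophin receptor, differed by -3.34 (SE 0.425) and *Mtmr2*, a phosphoinositide phosphatase, by -2.89 (SE 0.316). None of these 4 had overlapping myofibers.

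*Gadl1*, a decarboxylase of muscle, differed by -3.08 (SE 0.410), *Zfhx3*, a large transcription factor, by -2.94 (SE 0.451), *Birc6*, an inhibitor of apoptosis, by -2.86 (SE 0.395) and *Cyb5d2* by -2.85 (SE 0.468). *Actl9* was at -2.76 (SE 0.291) and overlapped through Wt myofiber 8, at -0.34. *Ankrd43* differed by -3.01 (SE 0.661), with overlapping ranges of -1.67 to 3.87 in Wt and -2.18 to 2.77 with AFS. *Fgf22*, a growth factor, was at -3.09 (SE 0.636), but its other probe gave 0.45 (limma, adjusted p = 0.363) in the opposite direction.

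**Figure D5:**
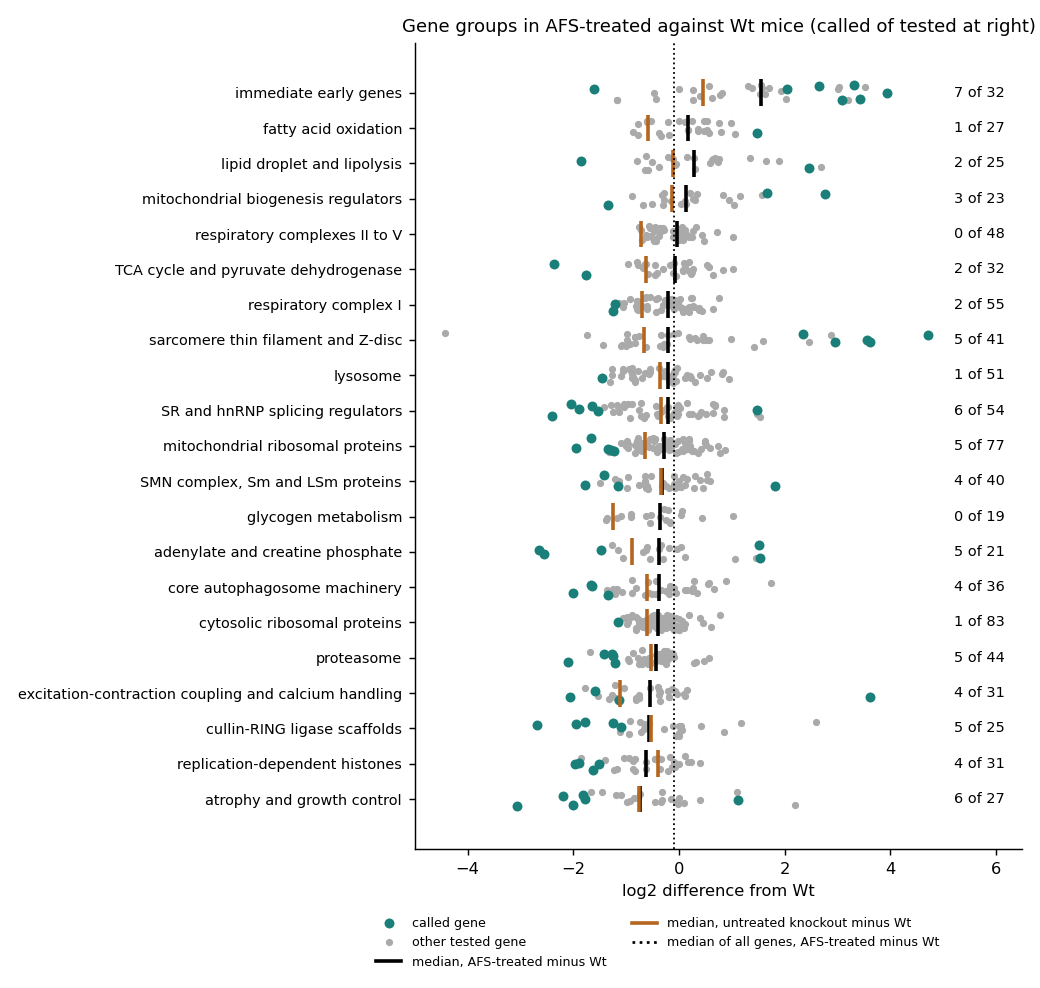
Log2 difference of AFS-treated from Wt mice (x axis) for each tested gene of 21 function groups, with called genes in green, group medians in black, the medians of untreated knockout minus Wt in orange and the median of all genes, -0.10, dotted. Immediate early genes stand at a median of 1.54, atrophy and growth control genes at -0.74, and respiratory complexes II to V at -0.04 with 0 of 48 called.

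Over the 42 function groups, 17 had a larger share of called genes than the 8.66% of all genes and 25 a smaller one, among them 6 with no call. In 36 groups the median lay nearer to 0 for AFS-treated than for untreated mice, both measured against the same Wt mice. The median over all genes was also nearer to 0, at -0.10 against -0.18, and some groups share members. Directly between AFS-treated and untreated mice limma called 0 genes. Among the 36 groups the medians lay furthest apart for glycogen metabolism, at -0.35 against -1.24, and fatty acid oxidation stood at 0.18 against -0.58. The immediate early genes were an exception, at 1.54 against 0.46, and so were the histones, at -0.62 against -0.39. None of these shifts was tested.

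Probes seen in a single group were not tested, and only a bound can be given, the mean of the bright group over the detection limit of the dim one. Well above background on all 7 AFS-treated arrays and on no Wt array were 86 of 55681 probes, of which 38 have a plain symbol. Arrays had values for 25868 to 30478 probes with AFS and for 23864 to 34001 in Wt. The effect of such differences in detection on these counts was not tested. *Rasgef1b*, an exchange factor, was at least 27.1-fold higher, *Sgms2*, a sphingomyelin synthase, at least 17.0-fold, and *Maff*, a small Maf factor like *Mafk*, at least 13-fold. *Runx1*, a transcription factor that denervated and regenerating muscle induces, was at least 9.25-fold higher. Further ones were *Ccl27a* (13-fold), *Ugt3a1* (7.93-fold), *Ifnab* (6.32-fold) and *Adam26b* (4.95-fold), each as a lower bound. Another probe of *Ccl27a* entered the fit and was called at 1.69 (SE 0.406, limma, adjusted p = 0.0436). These 8 probes also had values on at least 11 of the 12 untreated arrays.

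In the other direction 33 probes, 21 with a plain symbol, were on every Wt array and on no AFS-treated array. *H60b*, a ligand of a natural killer cell receptor, was at least 23.6-fold lower with AFS and *Slc16a9*, a carnitine transporter, at least 12.7-fold. *Nutf2*, a nuclear import factor, and *Eif3a*, a translation initiation factor, were each at least 11.9-fold lower, and *Tpp1*, a lysosomal peptidase, at least 9.11-fold. *Ly6g6d* (8.87-fold), *Slc6a9* (8.45-fold) and *Gatc* (8.11-fold) followed. Other probes of 3 of these genes entered the fit and were not called, at -0.06 for *Nutf2*, 0.10 for *Gatc* and -0.96 for *Slc6a9*, so the bounds describe the probe and not the gene. Untreated arrays had values for between 1 and 7 of 12 at these probes.

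Markers of other cell types were measured to see what else the samples held, since RNA of the myofiber and of adhering cells cannot be told apart in such a preparation. Among the tested markers only *Sdc4*, a proteoglycan of satellite cells, was called, at 2.23 (SE 0.514, limma, adjusted p = 0.0403), with Wt from -2.74 to -0.54 and AFS from 0.03 to 2.05. The defining satellite cell genes did not accompany it: *Pax7* had a value on 1 Wt and 1 AFS-treated array, and *Myf5* and *Calcr* on none. *Vcam1* had a value on 1 Wt and 2 AFS-treated arrays. *Cdh15* had values on 8 Wt and 7 AFS-treated arrays and differed by 0.17 (limma, adjusted p = 0.771). The fibroblast genes *Pdgfra* and *Dpt* also had no value on any of the 15 arrays. Other fibroblast genes were detected. *Mfap5* had values on 2 of 8 Wt and 7 of 7 AFS-treated arrays, *Dcn* on 1 and 5, *Col1a1* on 2 and 5, and *Lum* on 1 and 1. *Ly6a*, at 0.24, and *Col3a1*, at 1.02, were tested and not called.

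Several markers had positive differences that did not pass the test. *Ptprc*, the pan-leukocyte CD45, was at 1.19 (limma, adjusted p = 0.0588), with all AFS-treated myofibers, from -0.37 to 0.12, above all Wt ones, from -1.75 to -0.84. *Tagln*, of smooth muscle, was at 1.15 (limma, adjusted p = 0.0746) and also without overlap, *Cd68*, of macrophages, at 2.87 (limma, adjusted p = 0.0799) and *Col1a2*, a collagen, at 1.29 (limma, adjusted p = 0.226). *Hba-a1*, a globin, was at 2.79 (limma, adjusted p = 0.124), with 5.25, 4.52, 3.46 and 4.36 in AFS-treated myofibers 1, 2, 3 and 5, at most -0.05 in the other 3 and 4.88 in Wt myofiber 7. The other tested macrophage markers went both ways, with *Cd14* at 1.23, *Itgam* at 0.11, *C1qb* at -0.37 and *Csf1r* at -0.40, none called. The part of these markers in the differences above was not tested.

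The ranges of the summed marker levels overlapped between the groups for every list. Fibroblast markers summed to between 0.44 and 6.89 in Wt and 1.42 and 4.68 with AFS, endothelial markers to 2.60 to 4.72 and 3.75 to 5.16, and macrophage markers, dominated by the bright *Itgam* probe, to 7.64 to 8.30 and 7.86 to 8.29. Smooth muscle and pericyte markers summed to 1.74 to 4.54 and 3.27 to 4.42, satellite cell markers to -0.41 to 1.32 and 1.16 to 2.45, lymphocyte markers to 1.41 to 3.64 and 2.25 to 2.86, and Schwann cell markers to 0.49 to 1.84 and 0.87 to 2.78. Erythroid markers ran from -1.38 to 5.08 and from -0.02 to 5.47, and tendon markers from 0.92 to 3.41 and from 1.21 to 2.04. *Kit*, the antigen by which the donor cells were sorted, had a value on 2 of 8 Wt and 3 of 7 AFS-treated arrays, none above -1.62, and muscle identity genes summed to between 11.52 and 12.25 in Wt and 11.59 and 11.99 with AFS.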

How the data were processed

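Single tibialis anterior myofibers were hybridised to 1-colour Agilent arrays after whole-transcriptome amplification, and the deposited scanner files hold intensities that Agilent Feature Extraction 10.7.3.1 had background-subtracted and detrended, per the file headers and labels. The authors also deposited a table of between-array normalized intensities, which served as an alternative. Log2 of the processed intensity minus the 75th percentile of each array was used, with values missing where a spot was not well above background. Probes with values on at least 75% of 15 arrays were kept (21253 probes). The brightest probe stood for a gene (15985 genes of 35527 gene names, 10636 with a current RefSeq symbol). This held for *Smn1* too in the main counts of called genes. The difference at its listed probe, the dimmer of the pair, came from a separate fit with that probe put in. Coordinates are those of the array design (mm9). Myofibers were averaged within mice, and limma 3.58.1 in R 4.3.3 was fitted to 7 mice, of which the 3 untreated knockout mice only entered the spread. Genes were called at a Benjamini-Hochberg adjusted p under 0.05. The fit was tested on simulated data. Named genes were both *Smn1* probes, up to 4 called genes a direction in each list, up to 8 probes seen in a single group, and all myosins. Also named were the 15 largest called differences in each direction among genes with a plain symbol. These had values on at least 6 arrays a group and both AFS-treated mice beyond both Wt mice. Markers came from set lists, and not every member is named. Other genes, such as members of a list that were not called, were chosen after their values were seen. Members and lists were chosen with earlier results of these data known, and MitoCarta genes were taken from the inventory that the study used. The number of arrays limits the precision, and no column of another sample was used.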

Additional observations from a re-analysis of the deposited data

Results flagged for a closer look

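Of 66 groups of values examined, 10 held 1 sample that lay far from the others of its group, and chance alone marks about 1 group in 20. Wt myofiber 8 was the sample in 8 of the 10. It had values for 34001 probes where the next Wt array had 27318. It was the lowest Wt myofiber for *Smn1* at the listed probe (0.63, the next 1.56), *Zmynd17* (1.48, the next 4.49), *Nipsnap3a* (-3.15, the next 0.69), *Actl9* (-0.34, the next 1.87) and *Gadl1* (1.12, the next 2.16), and the highest for *Ankrd2* (1.39, the next -0.33) and *Csrp3* (0.56, the next -1.73). For each of these genes it lay on the side of the AFS-treated myofibers. Without this myofiber limma called 1799 genes, all 120 named genes among them.

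The other pair involved other samples. *Mtmr2* was highest in Wt myofiber 1 at 4.33 (the next 2.68), and the other *Smn1* probe was highest in AFS-treated myofiber 3 at 3.88 (the next 2.96).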

How the results depend on the processing

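The direction of the *Smn1* difference at the listed probe and of the named genes stayed the same in every alternative run that held them. The calls did not stay the same. All 120 named genes were held except with the filter over all 27 arrays (118) and with values on all 15 arrays (86). The count of called genes went from 1384 to 787 with quantile normalization, 840 with the authors' value table and 1 at an adjusted p under 0.01. It rose to 3339 with only Wt and AFS-treated mice in the fit and to 3470 with myofibers and the mouse as a random block. Myofibers as replicates gave 6829 genes, or 2355 at an adjusted p under 0.001. The same alternatives gave 27, 27, 0, 123, 133, 304 and 90 MitoCarta genes in place of 50. MitoCarta genes numbered 33 with the slide as a random block. Leaving out a mouse gave between 0 and 4782 genes, between 0 and 195 MitoCarta genes, and a *Smn1* difference between -2.19 and -1.03. The mouse number as a replicate block gave 893 genes, 28 MitoCarta genes and -1.61 for *Smn1* (adjusted p = 0.0527), but same-numbered Wt and AFS-treated mice share only a number (correlation of their deviations -0.067).

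*Smn1* at the listed probe was no longer called with quantile normalization (-1.47, adjusted p = 0.0717), arrays centred on the median (-1.48, 0.0678), normexp followed by quantile normalization (-1.08, 0.0712), the authors' value table (-1.44, 0.0709) or no filter with the measured signal kept (-1.61, 0.0611), and the mean of both probes gave -0.61 (0.202). Of the 120 named genes 77 kept their call with quantile normalization, 72 with the slide as a random block, 30 with AFS-treated mouse 2 left out and 0 with AFS-treated mouse 1 or either Wt mouse left out. An alternative chosen after seeing the data left out AFS-treated myofibers 2 and 3, scanned on another day, and gave 1029 genes and 28 MitoCarta genes. Another left out Wt myofiber 8 and gave 1799 and 65. The numbers with one mouse left out assume that the lone remaining mouse varies like the other groups. Signal over background limits what was tested: 55681 probes were in the design and 21253 were kept.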
